A study of Mus musculus with 16 samples.

Results

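The proteasome is the protease complex that degrades most ubiquitin-tagged proteins of the cell. Its core particle is a barrel of alpha subunits (Psma genes), which form the gates, and beta subunits (Psmb genes), some of which hold the active sites. The regulatory cap binds, unfolds and deubiquitinates substrates with ATPases (Psmc genes) and non-ATPase subunits (Psmd genes). In immune cells and under interferon, the catalytic subunits Psmb8, Psmb9 and Psmb10 replace Psmb5, Psmb6 and Psmb7 to form the immunoproteasome, which supplies peptides for antigen presentation.

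The genes described here were taken by symbol: Psma, Psmb, Psmc, Psmd, Psme, Psmf or Psmg followed by a digit, with a probe above the array median on 2 or more of 16 arrays. All 45 symbols found had such a probe, out of 10607 genes tested, and each gene was read from its brightest kept probe. They comprise 7 alpha subunits, 7 constitutive beta subunits, 3 immunoproteasome subunits, 6 ATPases and 10 non-ATPase subunits of the cap, 3 cap assembly chaperones, 4 activators (Psme genes) and 3 core assembly chaperones (Psmg genes). The symbol rule also took 2 genes, Psmc3ip and Psme3ip1, that encode interaction partners and no subunit, which leaves 43 genes without them. The 30 constitutive subunits of core and cap are the alpha, beta, ATPase and non-ATPase genes together. Psmd3, Psmf1 and Psmg4 were not analysed here.

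Expression was measured with Illumina bead arrays in sorted duodenal crypt cells of transgenic mice of mixed B6/129S6 background, 8 to 12 weeks old. All mice, controls included, carried the Lgr5-EGFP stem cell reporter and received doxycycline (4 mg/ml, in drinking water with 1% sucrose) for 24 h, which induced either TdTomato-BRAF(V600K), an oncogenic form of the BRAF kinase, or TdTomato-luciferase (luc). Cells were gated as green only (G), red and green (RG), red only (R) or neither (NEG). The groups were luc G and luc RG with 2 arrays each, and BRAF G, BRAF RG, BRAF NEG and BRAF R with 3 arrays each, every array being 1 mouse and 1 gate and the gates of a line sharing their mice. G and NEG cells of the BRAF line were thus transgene-low cells of induced mice. The labels do not name what drives the transgenes, and because the 2 transgenes were in different mice, line and transgene cannot be told apart.

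Array medians ran from 118.9 to 119.9 intensity units, since all arrays had been given 1 distribution. The gates were checked against markers. The summed intensity of 6 tested stem cell markers, Lgr5 and Olfm4 among them, was 11841 to 13860 in the G groups, 5950 to 8096 in the RG groups, 8995 to 10850 in BRAF NEG and 3386 to 4538 in BRAF R. Each of 8 tested epithelial markers, keratins and claudins among them, exceeded the array median on 1 or more arrays of every group. NEG held leukocyte RNA: 19 tested leukocyte markers summed to 21623 to 30428 units there and to 2012 to 2870 elsewhere, where 11 or 12 of the 19 were at or under the median on every array of a group. The lowest mean correlation with arrays of the same group was 0.918, for BRAF R of mouse 1, and luc RG stood at 0.924 against 0.990 for luc G.

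The promoters of 4 genes are shown for reference: Psmd14 and Psmd12, cap subunits called higher in BRAF RG than in luc RG, and Psmb8 and Psmb9, immunoproteasome genes whose differences between the lines had the opposite sign and did not pass the test. The sequences are from RefSeq (GRCm38.p6), 5′ to 3′ on the gene's strand, and end at the base before the gene's start. Psmd14 is shown from chr2:61711444-61711693 (plus strand), Psmd12 from chr11:107479278-107479527 (plus), Psmb8 from chr17:34197945-34198194 (plus) and Psmb9 from chr17:34187331-34187555 (minus). Psmb9 lies head to head with Tap1, a peptide transporter gene, so its sequence stops after 225 bases where Tap1 begins. Capitals mark matches to the motifs searched.
Psmd14: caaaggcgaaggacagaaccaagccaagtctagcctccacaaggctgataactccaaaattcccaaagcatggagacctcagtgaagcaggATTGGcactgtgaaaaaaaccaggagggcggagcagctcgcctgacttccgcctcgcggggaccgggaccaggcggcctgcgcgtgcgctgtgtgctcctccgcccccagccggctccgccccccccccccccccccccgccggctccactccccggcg
Psmd12: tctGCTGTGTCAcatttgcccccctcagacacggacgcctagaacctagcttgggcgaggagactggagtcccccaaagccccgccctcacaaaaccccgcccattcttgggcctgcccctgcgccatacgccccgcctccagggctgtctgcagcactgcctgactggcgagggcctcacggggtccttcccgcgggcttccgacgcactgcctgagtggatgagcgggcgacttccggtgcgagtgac
Psmb8: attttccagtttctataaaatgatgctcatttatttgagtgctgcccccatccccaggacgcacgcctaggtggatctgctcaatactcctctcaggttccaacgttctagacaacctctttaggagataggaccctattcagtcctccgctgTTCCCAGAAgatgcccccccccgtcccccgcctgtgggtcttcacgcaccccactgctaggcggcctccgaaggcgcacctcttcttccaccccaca
Psmb9: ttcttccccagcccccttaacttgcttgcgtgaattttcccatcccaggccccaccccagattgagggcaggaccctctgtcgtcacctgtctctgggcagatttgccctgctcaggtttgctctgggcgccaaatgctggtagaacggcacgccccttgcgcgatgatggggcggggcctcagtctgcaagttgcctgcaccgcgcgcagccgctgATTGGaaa

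The 250 bases before the start were searched on both strands for 4 motifs: TGACNNNGC (core of the antioxidant response element), CCAAT, GAAANNGAA (from the interferon-stimulated response element) and TTCNNNGAA (STAT element). The last pair can share a GAA. A promoter was found for 39 of the 45 genes (43 promoters), beside 32851 in the table. The antioxidant core was present in 11.6% of the proteasome gene promoters and 10.2% of all, CCAAT in 34.9% and 33.8%, the interferon letters in 6.98% and 7.13%, and the STAT letters in 4.65% and 7.02%. These shares lay close to those of all promoters. In the sequences shown, Psmd14 had a CCAAT match at -159 to -155 from the start, Psmd12 an antioxidant core at -247 to -239, Psmb8 a STAT element at -97 to -89 and Psmb9 a CCAAT match at -8 to -4.

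Across the 6 groups the proteasome genes varied about as much as other genes, and most were lowest in the same group. They were brighter than most genes, so the genes compared were not of like intensity. Their mean log2 intensity had a median of 9.94, against 7.89 over all genes tested, and 41 of 45 lay above the latter. The range of a gene's 6 group means had a median of 0.61 on the log2 scale (0.65 over all genes tested). It was under 0.5 for 15 members and over 1 for 4: Psmc3ip (1.90), Psmb9 (1.27), Psmd14 (1.12) and Psmd12 (1.08). For 31 of the 45 genes the lowest group was luc RG, against 27.6% of all genes tested, and for 22 the highest was BRAF G, against 18.3% of all genes. The immunoproteasome genes were among the exceptions: Psmb8 was highest in luc RG, and Psmb9 and Psmb10 in luc G.

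**Figure D1:**
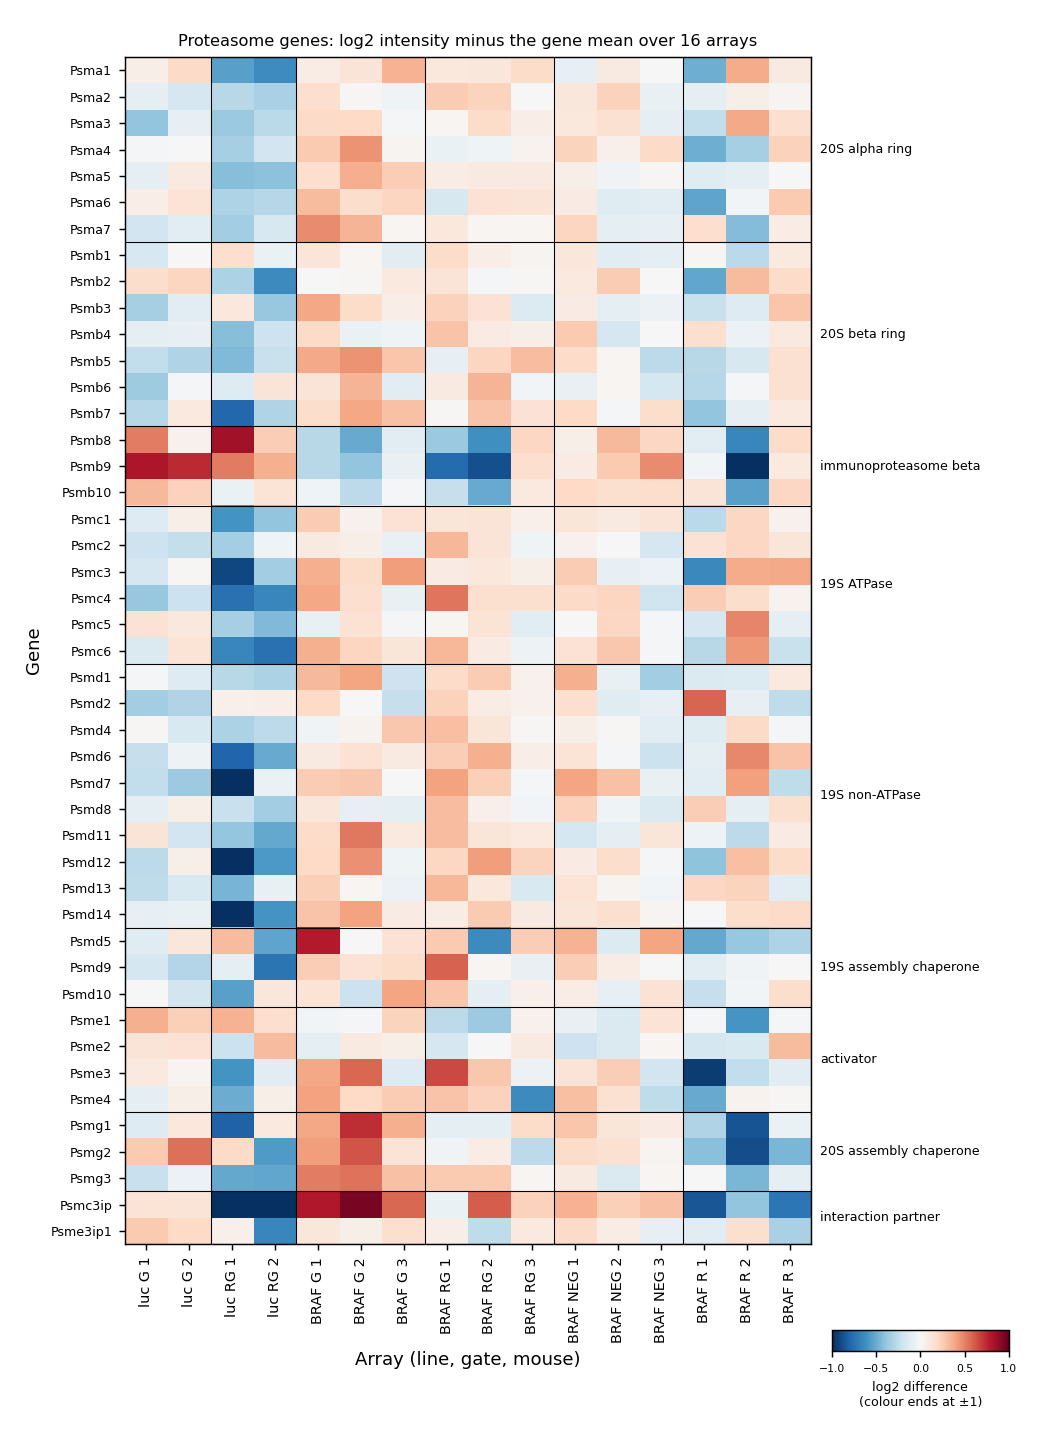
Each row is one of the 45 genes, ordered by role, and each column one of the 16 arrays (line, gate, mouse); colour is log2 intensity minus the gene's mean over all arrays, with the scale ending at ±1. Most core and cap subunits are blue in the luc RG columns. Psmb8 and Psmb9 lie above their means in the luc columns and also in the BRAF NEG columns, Psmb8 only slightly on the lower luc G array.

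The clearest difference was between the lines in the RG gate. The mean log2 intensity of the 30 constitutive core and cap genes was 10.06 and 10.19 on the luc RG arrays and 10.56, 10.67 and 10.69 on the BRAF RG arrays. The luc RG arrays were the lowest of all 16: the luc G arrays stood at 10.37 and 10.46, BRAF G at 10.57 to 10.72, BRAF R at 10.38 to 10.60 and BRAF NEG at 10.46 to 10.64. In sorted bulk RNA, fewer cells of a type and less RNA per cell cannot be told apart.

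All 30 of these genes had a higher mean in BRAF RG than in luc RG, and 10 of them passed the test (limma, Benjamini-Hochberg adjustment over all genes, threshold 0.05). Of all 45 genes, 12 were called higher and 0 lower, beside 9.55% of all genes called higher and 16.6% called in either direction. The median log2 change of the 45 was 0.41, against -0.01 over all genes tested. The groups did not overlap, with BRAF RG higher, for 28 of 45 genes (23.3% of all genes) and with BRAF RG lower for 3 (20.8% of all genes).

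Among the cap's non-ATPase subunits, 4 of 10 were called higher in BRAF RG than in luc RG, beside 9.55% of all genes. Psmd14, the deubiquitinase that removes ubiquitin chains from substrates entering the cap, read 9.43 and 9.95 in luc RG and 10.62, 10.81 and 10.64 in BRAF RG (log2 intensity). Its levels in the other groups were 10.47 on both luc G arrays, 10.63 to 10.95 in BRAF G, 10.58 to 10.71 in BRAF NEG and 10.55 to 10.74 in BRAF R. Only the luc RG arrays lay below 10.4. The BRAF RG minus luc RG difference was 1.00 ± 0.17 on the log2 scale (SE; adjusted p 0.00214, limma).

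Psmd12, a scaffold subunit of the cap's lid, read 8.84 and 9.27 in luc RG and 10.06, 10.27 and 10.07 in BRAF RG. It was at 9.59 and 9.91 in luc G, 9.80 to 10.30 in BRAF G, 9.83 to 10.02 in BRAF NEG and 9.44 to 10.15 in BRAF R. Again luc RG lay below every other array. The difference between the RG groups was 1.08 ± 0.22 (SE; adjusted p 0.00563, limma), or 2.11-fold on the linear intensity scale. The lid subunits Psmd6 and Psmd11 were higher by 0.87 and 0.63 (adjusted p 0.00696 and 0.0299, limma). Psmd7, the partner of Psmd14 in the lid, had a difference of 0.81 that did not pass (adjusted p 0.0558).

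**Figure D2:**
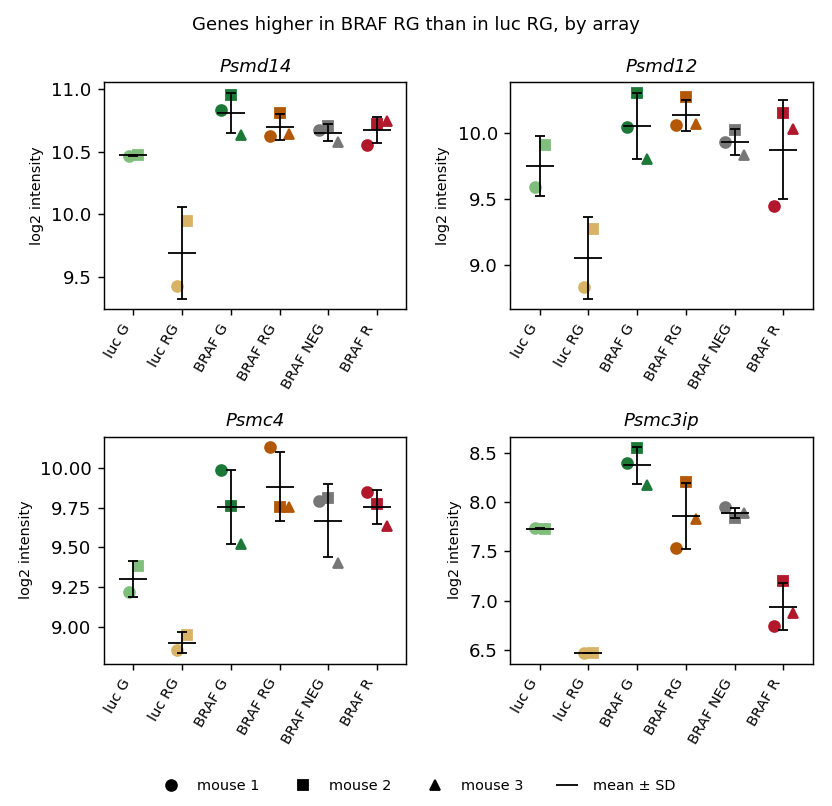
Log2 intensity per array in the 6 groups for Psmd14, Psmd12, Psmc4 and Psmc3ip; points are arrays (circle, square and triangle for mouse 1, 2 and 3), horizontal bars are means and whiskers ± SD, and the axes do not start at 0. In each panel both luc RG arrays lie below all 3 BRAF RG arrays.

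The ATPases unfold substrates and thread them into the core, and 3 of 6 were called higher in BRAF RG than in luc RG. Psmc4 was higher in BRAF RG by 0.98 ± 0.19 (adjusted p 0.00371), Psmc6 by 0.82 ± 0.21 (adjusted p 0.0165) and Psmc1 by 0.60 ± 0.16 (SE; adjusted p 0.023, limma). Their group ranges did not overlap. For Psmc3, a further ATPase, the difference of 0.71 did not pass (adjusted p 0.0769). In the core, 2 of 7 alpha subunits were called higher, Psma1 (0.72, adjusted p 0.0269) and Psma5 (0.50, adjusted p 0.0253, limma). Of the 7 constitutive beta subunits 1 was called higher, Psmb7 (0.69, adjusted p 0.0275, limma). All 7 alpha genes were higher on each BRAF RG array than on each luc RG array, but 5 of them did not pass. Of all genes, 23.3% were higher without overlap in this comparison and 9.55% were called higher. The other 20 core and cap genes had differences from 0.04 to 0.81 and did not pass. For the cap assembly chaperones Psmd5, Psmd9 and Psmd10 the differences were 0.07 to 0.59, also with 0 calls.

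The number of genes that passed changed with the fit and with the arrays included. Fitted on the arrays of the RG groups alone 2 genes passed, Psmd12 and Psmc3ip, with estimated array weights (0.41 for both luc RG arrays) 5 passed, and without luc mouse 1, luc mouse 2 or BRAF mouse 2 the count was 4, 7 or 7. Of the 12 genes, Psmc3ip passed in each of 14 alternatives, and Psmd14 and Psmc4 lost their call in 1, on the arrays of the RG groups alone (adjusted p 0.0585 and 0.0554). Psmd12 did not pass without luc mouse 1 (0.86, adjusted p 0.0713), nor did Psmd6 (0.72, adjusted p 0.0806). The other 7 lost theirs in 4 to 8 alternatives. Psmb7 was among them, with adjusted p up to 0.224 and its difference at 0.45 without luc mouse 1. The luc RG arrays also differed in secretory cells: 3 goblet markers summed to 31388 to 33955 units there and to 9606 to 17425 in BRAF RG, all 3 called lower in BRAF RG, and 5 enteroendocrine markers summed to 22177 to 22344 and to 8768 to 9790, 3 of them called lower. The sum of 2 Paneth markers was 15137 to 16675 in luc RG and 3396.5 to 12951 in BRAF RG, with 0 called. Of 3 tuft cell markers, 1 was called lower in BRAF RG. Of the 8 epithelial markers, 4 were called higher in BRAF RG than in luc RG and 0 lower. The part of secretory and other epithelial cells in the proteasome gene result was not tested.

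Within the luc line, RG read lower than G for most of the set. The difference was below 0 for 39 of 45 genes, with a median of -0.27 (-0.01 over all genes), and the groups did not overlap for 27 genes that were lower in RG (31.7% of all genes). Few passed: 2 genes were called lower and 0 higher, beside 6.78% of all genes called lower and 11.9% called in either direction. These were Psmd14, which fell by 0.78 ± 0.19 (SE; adjusted p 0.0156, limma), and Psmc3ip. With mouse as a block, 5 passed, all lower: Psma1, Psmc6 and Psmd12 joined them. Without luc mouse 1 the count was 0 (adjusted p 0.261 for Psmd14 and 0.0582 for Psmc3ip). Cell type markers differed between the same gates. The goblet markers, at 5888 to 6258 units in luc G, and the enteroendocrine markers, at 3389 to 4824, were called higher in luc RG, 3 of 3 and 5 of 5. Of the stem cell markers 5 of 6 were called lower in luc RG, and of the tuft cell markers 2 of 3 (789.4 to 805.5 units in luc G, 426.7 to 454.3 in luc RG). Their part in the values of the proteasome genes was not tested.

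In the BRAF line the same pair of gates showed 0 calls among the 45 genes (0.801% of all genes, limma). At an unadjusted p under 0.05, 0 were higher and 2 lower, beside 528 and 421 of all 10607 genes. The median difference was -0.05, against -0.02 over all genes. The smallest adjusted p was that of Psmc3ip (-0.51, adjusted p 0.298). The RG-G change was set against that of the luc line directly, and 0 members were called (0.481% of all genes, limma). At an unadjusted p under 0.05, 6 were higher and 0 lower, beside 734 and 668 of all 10607 genes. Psmd14 came closest, with a difference of changes of 0.66 ± 0.25 (SE; adjusted p 0.248, limma).

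BRAF G against luc G compares transgene-low stem cell gates of the lines. Of the 45 genes, 35 had a higher mean in BRAF G, with a median of 0.25 (0.01 over all genes), and the groups did not overlap for 23 that were higher (18.5% of all genes) and 7 that were lower (17.6%). None passed in limma (0.217% of all genes called). At an unadjusted p under 0.05, 6 were higher and 1 lower, beside 357 and 470 of all 10607 genes. The lowest adjusted p was that of Psmb5, which carries the chymotrypsin-like active site. It read 8.31 and 8.26 in luc G and 8.94, 9.01 and 8.84 in BRAF G, without overlap, a difference of 0.64 ± 0.19 (SE; adjusted p 0.285, limma). With array weights, high for luc G (2.81), 12 members passed, 10 higher and Psmb8 and Psmb9 lower, and on the arrays of these groups alone 3 passed, Psmb5 and Psmc3ip higher and Psmb9 lower.

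**Figure D3:**
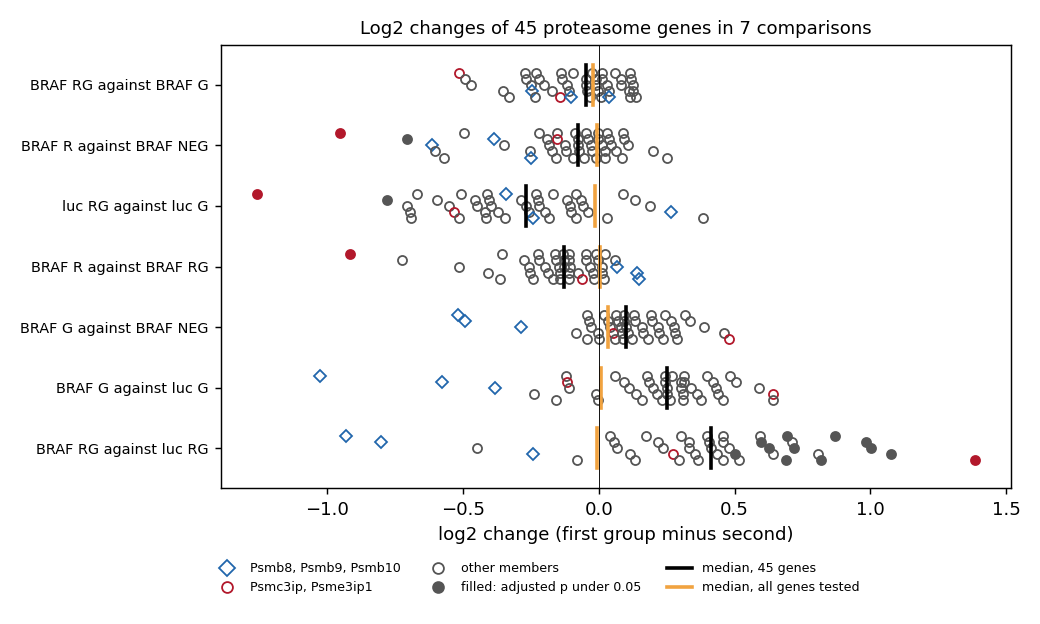
Log2 changes of the 45 genes in 7 comparisons of 2 groups (first minus second), 1 symbol per gene, filled where the adjusted p was under 0.05; blue diamonds are Psmb8, Psmb9 and Psmb10, red circles Psmc3ip and Psme3ip1, and the bars mark the median of the 45 genes (black) and of all genes tested (orange). The black bar stands farthest from the orange one in BRAF RG against luc RG (0.41 and -0.01), where the diamonds lie on the other side of 0.

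The other catalytic subunits of the constitutive core are Psmb6 (caspase-like activity) and Psmb7 (trypsin-like activity). The range of the 6 group means was 0.83 for Psmb7 and 0.70 for Psmb5. Psmb6 read 9.55 and 9.89 in luc G, 9.78 and 10.03 in luc RG, and 9.62 to 10.25 over the 12 BRAF arrays, so that all groups overlapped the luc range. Psmb7 read 10.004 and 10.39 in luc G, 9.50 and 9.99 in luc RG, 10.46 to 10.67 in BRAF G, 10.30 to 10.57 in BRAF RG, 9.89 to 10.39 in R and 10.28 to 10.49 in NEG. Its BRAF G and BRAF RG arrays all lay above the luc arrays of the same gate. Psmb5 was at 8.12 and 8.34 in luc RG, 8.48 to 8.87 in BRAF RG, 8.28 to 8.71 in R and 8.30 to 8.74 in NEG, and its BRAF RG minus luc RG difference was 0.48 (adjusted p 0.0896, limma).

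For the immunoproteasome genes, 0 of 3 were called between the lines in either gate (limma). Their differences were below 0 in both, with 1 of 3 in G and 2 of 3 in RG at an unadjusted p under 0.05. Of all 10607 genes, 470 in G and 1536 in RG were lower at that threshold. Psmb9, the counterpart of Psmb6, read 10.67 and 10.61 in luc G and 9.58, 9.47 and 9.79 in BRAF G, and 10.38 and 10.22 in luc RG against 9.09, 8.98 and 10.03 in BRAF RG. It was at 9.94 to 10.33 in NEG, and at 9.84, 8.75 and 9.96 in R of mice 1, 2 and 3. In both gates every BRAF array lay below every luc array, with mouse 3 the highest of the BRAF RG arrays and mouse 2 far the lowest in R. The difference was -1.03 ± 0.33 in G (adjusted p 0.36) and -0.93 ± 0.33 in RG (SE; adjusted p 0.0655, limma), neither of which passed.

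Psmb8, the counterpart of Psmb5 and a neighbour of Psmb9 on chromosome 17, read 8.35 and 7.88 in luc G, 8.67 and 8.08 in luc RG, 7.56, 7.33 and 7.72 in BRAF G and 7.47, 7.22 and 8.04 in BRAF RG. Its arrays in NEG were at 7.89 to 8.16 and in R at 7.73, 7.18 and 8.02. The BRAF arrays again lay below the luc arrays in both gates. The difference was -0.58 ± 0.28 in G (adjusted p 0.667) and -0.80 ± 0.28 in RG (SE; adjusted p 0.0599, limma). With mouse as a random block the RG difference passed (adjusted p 0.0483), and without BRAF mouse 3 both Psmb8 (-1.03, adjusted p 0.0366) and Psmb9 (-1.26, adjusted p 0.0217) did.

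Psmb10, the counterpart of Psmb7, read 12.07 and 11.98 in luc G, 11.68 and 11.88 in luc RG, 11.48 to 11.73 in BRAF G and 11.52, 11.25 and 11.84 in BRAF RG. NEG was at 11.91 to 11.94, and R at 11.88, 11.20 and 11.95. BRAF G lay below luc G (-0.38, adjusted p 0.775), while the RG groups overlapped (-0.24, adjusted p 0.473; limma). All 3 genes were thus lower in BRAF G than in luc G without overlap, as were 17.6% of all genes. Psmb5 and Psmb7 were higher there without overlap, as were 18.5% of all genes, and none of the 5 passed.

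**Figure D4:**
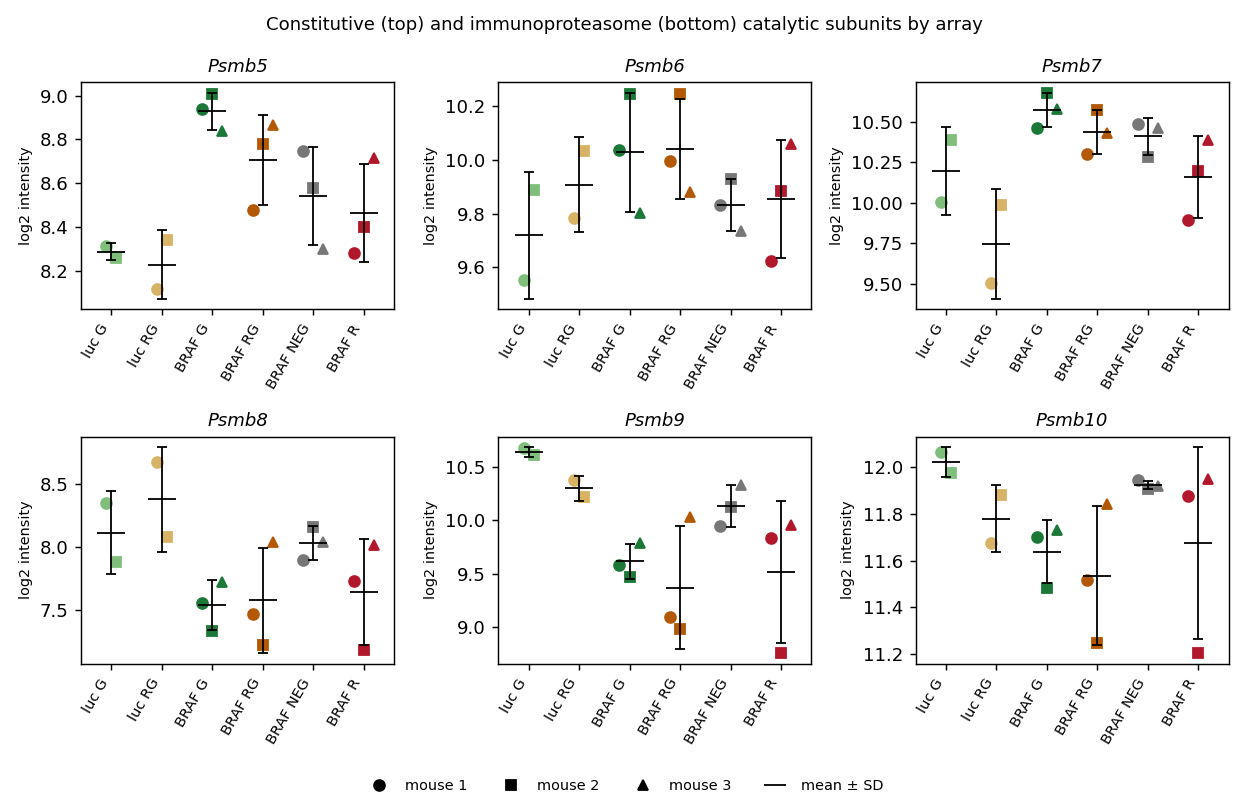
Log2 intensity per array for the constitutive catalytic subunits Psmb5, Psmb6 and Psmb7 (top) and their immunoproteasome counterparts (bottom), with mouse 1, 2 and 3 as circle, square and triangle, bars for means and whiskers for ± SD; axes do not start at 0. In G, the Psmb5 and Psmb7 points of the BRAF line lie above those of the luc line, and those of Psmb8, Psmb9 and Psmb10 lie below.

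Within the BRAF line, Psmb8, Psmb9 and Psmb10 were lower in G than in NEG in 3 of 3 mice and without overlap. The differences were 0.49, 0.52 and 0.29 on the log2 scale (adjusted p 0.702, 0.796 and 0.901, limma). Of all 10607 genes, 939 were lower in G than in NEG without overlap. Of the leukocyte markers 16 of 19 were called lower in G than in NEG, and of the goblet markers 3 of 3. Of all 45 genes 0 were called in this comparison (2.21% of all genes). At an unadjusted p under 0.05, 3 were higher and 0 lower, beside 241 and 584 of all 10607 genes. Of the 45 genes, 36 had the higher mean in G, as did 56.9% of all genes. Psmg3 had the smallest adjusted p (0.46 ± 0.15, adjusted p 0.261, limma). In R against NEG, where 17 of the 19 leukocyte markers were called lower, the 3 genes differed by -0.39 (Psmb8), -0.61 (Psmb9) and -0.25 (Psmb10), with the groups overlapping (adjusted p 0.338, 0.198 and 0.442, limma). The part of leukocyte and goblet cell RNA in these values was not tested. In BRAF G against luc G 0 of the 19 markers were called, beside 0.217% of all genes. Of the 19, 15 had a difference below 0 there and 4 above.

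Psme1 and Psme2 encode the interferon-inducible activator ring that opens the core. Psme1 read 11.41 and 11.30 in luc G, 11.41 and 11.22 in luc RG, 11.03 to 11.28 in BRAF G, 10.69 to 11.10 in BRAF RG, 10.46 to 11.04 in R and 10.91 to 11.19 in NEG. Both luc groups lay above the BRAF arrays of the same gate, and neither difference passed (-0.24 in G, adjusted p 0.933, and -0.45 in RG, adjusted p 0.135, limma). Psme2 was near the array median, at 6.89 to 7.42 over all groups, with the lines overlapping in RG and BRAF below luc in G (-0.12, adjusted p 0.9997). For Psme3, the nuclear activator, the R minus RG difference in the BRAF line was -0.72 (adjusted p 0.141), and for Psme4, an activator that binds the core in place of the cap, the BRAF RG minus luc RG difference was 0.17 (adjusted p 0.698), with another probe of the opposite sign.

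The Psmg genes encode chaperones that assemble the core's alpha ring. Psmg2 read 8.66, 8.63 and 8.50 in NEG and 8.06, 7.59 and 8.02 in R, lower in 3 of 3 mice and without overlap. The drop was -0.71 ± 0.21 in log2 intensity (SE; adjusted p 0.0354, limma). This call was lost without mouse 1, 2 or 3 and with only the arrays of these groups (adjusted p 0.0701 to 0.253). Psmg2 was at 8.74 and 9.03 in luc G, 8.67 and 7.91 in luc RG, 8.62 to 9.11 in BRAF G and 8.22 to 8.55 in BRAF RG. Psmg3 read 7.61 and 7.60 in luc RG and 8.38, 8.38 and 8.14 in BRAF RG. The difference between the lines was 0.69 ± 0.17 (SE, adjusted p 0.0141, limma).

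Psmc3ip, which takes its name from binding Psmc3 and is known as a partner in homologous recombination, varied most of the 45 genes. It read 7.73 and 7.72 in luc G, 6.47 on both luc RG arrays, 8.17 to 8.54 in BRAF G, 7.53, 8.20 and 7.83 in BRAF RG, 7.84 to 7.94 in NEG and 6.74, 7.20 and 6.88 in R. Its luc RG arrays lay under the array median (6.89 to 6.91 on this scale), as did 2 of 3 R arrays. It was at least 1.94-fold higher in BRAF RG than in luc RG (adjusted p 0.000731) and at least 1.78-fold lower in luc RG than in luc G (adjusted p 0.00224, limma). In the BRAF line it fell in R by 0.95 against NEG (adjusted p 0.00264) and by 0.92 against RG (adjusted p 0.0167, limma), in 3 of 3 mice each. Without mouse 3 the drop against NEG had an adjusted p of 0.05002.

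In R against NEG these were the only calls among the 45 genes: Psmc3ip and Psmg2 lower and 0 higher, beside 7.3% of all genes called lower and 12.6% in either direction. The 30 core and cap genes had 0 calls and a median of -0.02. In R against RG, Psmc3ip was the single call (1.64% of all genes called lower, 2.21% in either direction), and it was lost without mouse 1, 2 or 3 or with only the arrays of these groups (adjusted p 0.0804 to 0.23). Set against the RG-G change of the BRAF line, the R-NEG change gave 0 calls among the members (1.27% of all genes, limma). An unadjusted p under 0.05 was found for 0 members, beside 691 of all 10607 genes. The smallest adjusted p there was that of Psmc3ip (0.861). R also differed in epithelial markers. The enteroendocrine markers summed to 13613 to 27570 units in R, 3350 to 6944 in NEG and 8768 to 9790 in RG, 4 of 5 being called higher against NEG and 0 against RG. The goblet markers summed to 21677 to 28822 in R and 14209 to 18822 in NEG, with 1 of 3 called higher against NEG and 2 of 3 against RG. Of the stem cell markers 4 of 6 were called lower against NEG and 2 of 6 against RG, and all 3 tuft cell markers were called lower against NEG. The part of these cells in the R values was not tested.

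Other genes of the pathway were read from a list of 31 names, of which 18 were tested. Of all genes, 9.55% were called higher in BRAF RG than in luc RG and 16.6% were called in either direction. Among the 18, 3 were called higher and 0 lower. The share called in either direction was near the 16.6% of all genes, and the share called higher was above the 9.55%. These were Uchl5 (1.15 ± 0.20, adjusted p 0.00247) and Usp14 (0.64 ± 0.16, adjusted p 0.0136), deubiquitinases that bind the cap, and Ubqln4, which delivers ubiquitinated proteins (0.49 ± 0.15; SE; adjusted p 0.0387, limma). Uchl5 (-1.12, adjusted p 0.00524) and Ubqln4 (-0.62, adjusted p 0.0253) were the 2 that fell in luc RG against luc G, with 0 higher (6.78% of all genes called lower). In R, Zfand2a, an arsenite-inducible gene whose product binds the proteasome, rose by 1.70 ± 0.22 against NEG (adjusted p 0.000114) and by 1.33 ± 0.22 against RG (adjusted p 0.00934), and Ubqln4 fell by 0.55 against NEG (adjusted p 0.015, limma). Of all genes, 5.26% were called higher against NEG and 0.566% against RG, and 7.3% were called lower against NEG. In the remaining comparisons of 2 groups, 0 of the 18 were called. Nfe2l1, a transcription factor of proteasome genes, had a BRAF RG minus luc RG difference of -0.31 (adjusted p 0.256) and was at 10.37 and 10.79 in luc RG and 10.11 to 10.38 in BRAF RG.

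Genes of antigen presentation and interferon response share regulators with the immunoproteasome genes, and 20 were tested. In BRAF RG against luc RG 2 were called lower and 0 higher, a share near the 7.05% of all genes called lower there. These were the transcription factors Irf1 (-1.45 ± 0.39, adjusted p 0.0214) and Irf9 (-1.22 ± 0.29, SE; adjusted p 0.0105, limma). In BRAF G against luc G 0 of 20 were called (limma), and 0 had an unadjusted p under 0.05, as in BRAF RG against BRAF G and R against RG. Against NEG, Nlrc5, an activator of MHC class I genes that is also expressed in leukocytes, fell in G (-2.11, adjusted p 4.72e-06) and R (-2.13, adjusted p 4.38e-06), and Gbp2, an interferon-induced GTPase, fell in both (-0.86, adjusted p 0.0271, and -0.74, adjusted p 0.0232; limma). Of all genes, 2.19% were called lower in G than in NEG, and 7.3% in R than in NEG. Irf1 fell in R as well (-1.24, adjusted p 0.0311), and in luc RG against luc G H2-D1 alone was called (0.89 higher, adjusted p 0.0112, limma), where 5.11% of all genes were called higher.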

How the data were processed

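The deposited intensity values, 1 linear intensity per probe and array, were used as they stand. Per the submitters' processing notes they came from GenomeStudio, whose version is not given. From the values (25697 probes, 55.7 to 40121.2), the arrays had been quantile-normalized together (sorted arrays differed by at most 1.2), and background appears not to have been subtracted, so log2 changes understate those of dim genes. A non-normalized table was not used, because its 32 columns match no label. Names came from the platform annotation (23978 with 1 symbol, 1719 without), checked by Entrez identifier against RefSeq GRCm38.p6. Probes above the array median on 2 or more arrays were kept, and the brightest per gene by mean log2 intensity was tested. One limma 3.58.1 fit (R 4.3.3, lmFit, eBayes) took all 6 groups, with 10 residual and 5.26 prior degrees of freedom and Benjamini-Hochberg adjustment over 10607 genes. It held no term for mouse, so its p-values within a line leave out the pairing of gates. A gene that all arrays of a group place under their median has only a bound there, "at least N-fold", its level taken as the median or its own signal, whichever was higher. The scripts were tested on simulated data, in a simulation that was revised, with its limit, after a first version had failed. It recovered large differences and few small ones, so a small difference that did not pass is not shown to be absent.

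Genes named with array values are Psmb5 to Psmb10, Psme1, Psme2, up to 3 called members per direction and comparison, and, where none was called, the one of smallest adjusted p. Others named were chosen after their values were seen, and the members and lists were chosen with earlier results of these data known. Per the labels, equal numbers within a line are 1 mouse. In the BRAF line, 18 of 18 same-mouse pairs of arrays deviated together (r over 0.1 across genes, median 0.319). The 2 luc pairs had r 0.0457, which is 1 value, because with 2 arrays per group the deviations mirror each other. The precision is limited by 2 or 3 arrays per group.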

Additional observations from a re-analysis of the deposited data

How the results depend on the processing

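Line and transgene cannot be told apart, no chip or processing batch is given in the sources used here, and luc groups rest on 2 arrays. Counts of proteasome genes called moved as follows. With only the arrays compared, there was 1 in R against NEG, 1 in luc RG against luc G, 0 in R against RG, 3 in BRAF G against luc G and 2 in BRAF RG against luc RG. With array weights there were 2 in G against NEG, 12 in BRAF G against luc G and 5 in BRAF RG against luc RG. In luc RG against luc G there were 5 with the replicate block (mouse), 4 with the mean of all probes and 4 with trend and robust settings; the block changed no other call but those of Psmb8 (adjusted p 0.0483) and Psmd7 in BRAF RG against luc RG. Without Psmc3ip and Psme3ip1, an alternative chosen after seeing the data, the counts were 1 in R against NEG, 1 in luc RG against luc G and 0 in R against RG. Leaving out each mouse in turn gave 0 to 1 in R against NEG, 0 to 2 in luc RG against luc G, 0 to 0 in R against RG and 4 to 10 in BRAF RG against luc RG. No called change reversed. Uncalled changes of small size did. With each mouse left out in turn, those whose sign turned ran from -0.020 to 0.039 for Psmb6 and from -0.10 to 0.11 for Psmb8 in BRAF RG against G, and from -0.32 to 0.12 for Psmb5 and from -0.13 to 0.14 for Psmb6 in R against NEG. In R against RG they ran from -0.030 to 0.12 for Psmb8, from -0.15 to 0.34 for Psmb9, from -0.15 to 0.087 for Psme1 and from -0.081 to 0.11 for Psme2. In luc RG against luc G they ran from -0.20 to 0.080 for Psmb5 and from -0.34 to 0.17 for Psme2, and in BRAF RG against luc RG from -0.34 to 0.19 for Psme2. Without the R array of mouse 1, added after seeing the data, Psmb5 in R against NEG was at 0.016 and Psmb9 in R against RG at -0.012. With array weights, Psmb5 in R against NEG (0.13) and Psme1 in R against RG (0.067) reversed. Of the single-gene values under alternatives, 822 kept their direction and call, 9 gained a call, 19 lost one and 16 reversed. Of 16 members with several kept probes, 6 had one of opposite sign in BRAF RG against G, 5 in R against NEG, 4 in R against RG, 3 each in BRAF G against luc G, luc RG against luc G and G against NEG, and 2 (Psmd2, Psme4) in BRAF RG against luc RG.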
